A study of Mus musculus with 9 samples.

Results

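Interferon-stimulated genes are the genes that cells switch on when interferons, the antiviral cytokines, reach their receptors. A list of 53 such genes was followed through bone marrow cells carrying 1 of 3 constructs, and every array probe that the platform annotation assigns to a listed gene was taken, with older gene symbols accepted. Of the 53 genes, 51 had at least 1 named probe, with 103 probes in all among 45281 on the array. Ifi44 and Ifi203 had none, so their levels were not analysed here. A probe counted as detected on an array where its detection p-value lay below 0.01. A gene was tested if at least 1 of its probes was detected on 3 or more of the 9 arrays, which 40 of the 51 genes met, among 9136 genes tested in all. The other 11 are given by name with their families below. The members higher with MN1-TEL del DBD than with MN1-TEL were then set apart from the rest.

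The arrays compared cells transformed by a fusion oncoprotein, by a deletion form of it and by its MN1 part alone, in a study whose title concerns MN1 leukemia and its independence of Bmi1, a Polycomb gene. The cells were enriched for c-kit from the bone marrow of C57/Bl6 mice, given a retrovirus with the construct and grown in liquid medium for 10 days with 20 ng/µl SCF plus 10 ng/µl each of the cytokines IL-3 and IL-6, and their total RNA was labelled. The first group carried MN1-TEL del DBD (del DBD in what follows), a form of the fusion with a deletion, DBD being the common abbreviation of DNA-binding domain. The second group carried MN1-TEL, which joins MN1 to the ETS-family transcription factor TEL. The third carried MN1, a transcriptional coactivator. No group of cells without a construct was used here, and none was treated with interferon according to the labels. Each group held 3 arrays. Whether these came from separate transductions or cultures is not stated in the labels, so the p-values reflect only how far these samples differ, and that spread may be technical.

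Mean raw intensity was 875 ± 20.8 on the del DBD arrays, 943 ± 26.5 on the MN1-TEL arrays and 667 ± 30.8 on the MN1 arrays (SD, n = 3 each), and 14249 to 15273 probes were detected on an array. The number of arrays limits the precision. MN1-TEL replicate 2 stood apart from both other MN1-TEL arrays, with a lowest correlation of 0.975 within its group, against at least 0.992 within the del DBD and the MN1 groups, and with the third principal component, which held 6.09% of the variance. For 21 of the 40 members tested it lay above both other MN1-TEL arrays and for 9 below both, by amounts between -1.11 for Dtx3l and 0.85 on the log2 scale. Counts of members are therefore given with and without it. Kit, the gene by which the cells were enriched, was detected on all 9 arrays. It read 12.35, 11.95 and 12.19 on the del DBD arrays, 14.75, 13.86 and 14.56 on the MN1-TEL arrays and 13.64, 13.53 and 13.81 on the MN1 arrays. Kit is 1 of 7 progenitor markers tested, and the others did not all follow it, as counted below.

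Type I interferons bind a receptor of the chains Ifnar1 and Ifnar2, whose kinases Jak1 and Tyk2 phosphorylate STAT proteins, among them Stat2. With Irf9 these form a complex that binds the interferon-stimulated response element (ISRE) in the promoters of its target genes. Interferon gamma signals through Ifngr1 and Ifngr2 to pairs of STAT proteins, which bind another element, the gamma-activated site (GAS). Blood stem and progenitor cells keep part of this gene set on without infection, and interferons are known to push them out of quiescence.

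Promoters of 42 of the 53 genes were in the RefSeq table for GRCm38.p6, each 250 bases before to 50 bases after a gene's start. The core of the ISRE was searched for on either strand as GAAA, 2 bases of any kind and GAAA again, with overlapping matches counted. It was present in 21 of the 42 genes (95% Wilson interval of the share 35.5% to 64.5%), and in 1079 of 27025 genes (3.99%) with a promoter in the table. With CT required after the core the shares were 26.2% of the listed genes and 0.303% of all genes. The GAS was searched for as TTCNNNGAA, which reads the same on both strands. It was present in 12 of the 42 listed genes (28.6%) and in 9.55% of all genes. A match of letters is a description of the sequence and not a measured binding site.

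The stretches around the ISRE cores of 8 members are shown because they mark genes of each kind described below. Rsad2, Oas1g and Igtp were higher with del DBD than with MN1-TEL, Ifit3 was lower, Isg15, Gbp2 and Trim30a were not called, and Ifit1 was not detected on any array. Capitals mark every match of the core, which appears as TTTC, 2 bases and TTTC where it lies on the other strand. Each sequence is written 5′ to 3′ along its gene's strand. The first core began 120 bases before the start of Rsad2, 18 before Oas1g, 34 before Igtp, 156 before Ifit3, 78 before Isg15, 59 before Gbp2, 36 before Trim30a and 104 before Ifit1. In GRCm38.p6 the stretches lie at chr12:26456543-26456592 (minus strand) for Rsad2, chr5:120887614-120887651 (minus) for Oas1g, chr11:58199502-58199551 (plus) for Igtp and chr19:34583353-34583436 (plus) for Ifit3. Those of Isg15, Gbp2, Trim30a and Ifit1 lie at chr4:156200855-156200916 (minus), chr3:142620584-142620633 (plus), chr7:104465200-104465249 (minus) and chr19:34640765-34640833 (plus).
Rsad2: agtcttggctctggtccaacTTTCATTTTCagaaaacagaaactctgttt
Oas1g: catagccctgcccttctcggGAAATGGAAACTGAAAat
Igtp: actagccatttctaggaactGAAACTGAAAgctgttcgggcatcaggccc
Ifit3: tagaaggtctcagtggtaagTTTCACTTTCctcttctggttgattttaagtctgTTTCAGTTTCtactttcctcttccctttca
Isg15: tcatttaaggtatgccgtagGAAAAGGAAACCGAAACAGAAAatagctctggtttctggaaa
Gbp2: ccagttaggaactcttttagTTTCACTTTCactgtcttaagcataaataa
Trim30a: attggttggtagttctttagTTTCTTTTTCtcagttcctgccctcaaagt
Ifit1: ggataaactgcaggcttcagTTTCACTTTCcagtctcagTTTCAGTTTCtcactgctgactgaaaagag

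Most members tested were higher with either fusion than with MN1, and fewer differed between the fusions. In del DBD against MN1-TEL, 9 members were higher and 4 lower, and 27 did not pass the test, where 15.0% of all genes tested were higher and 14.4% lower. In del DBD against MN1, 35 members were higher, none was lower (none at an unadjusted p under 0.05 either) and 5 did not pass, with 18.0% and 19.1% of all genes higher and lower. In MN1-TEL against MN1, 29 members were higher and 2 lower, and 9 did not pass, with 25.3% and 29.4% of all genes higher and lower. Calls are those of a linear model in limma over all 9 arrays, at a Benjamini-Hochberg adjusted p under 0.05 over the 9136 genes. The higher counts against MN1 include Ifitm1, whose probes disagree. All 3 comparisons share arrays, so their values are set side by side and their agreement is no separate result.

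**Figure D1:**
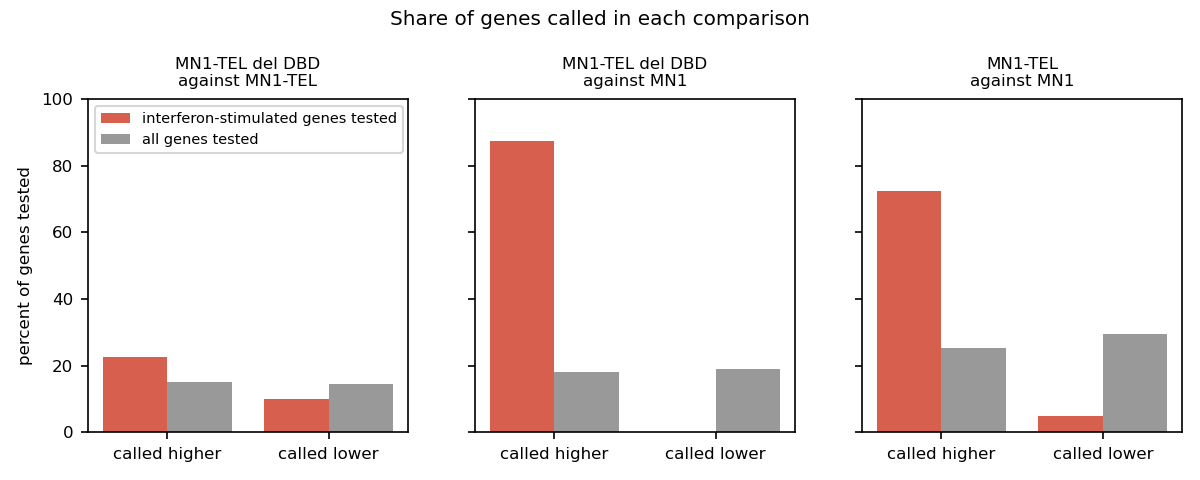
Percent of genes called higher or lower (vertical axis) in each comparison, for the 40 interferon-stimulated genes tested and for all 9136 genes tested. The members' bars reach 87.5% higher in del DBD against MN1 and 72.5% in MN1-TEL against MN1, and 22.5% in del DBD against MN1-TEL.

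The median log2 difference over the 40 members was 0.13 in del DBD against MN1-TEL, 1.21 in del DBD against MN1 and 0.78 in MN1-TEL against MN1, against 0.02, -0.04 and -0.06 over all genes tested. For 6 members, Isg15, Irf7, Oas2, Parp12, Ifitm6 and Ifit3, the probe was detected on no MN1 array, so the folds of both fusions over MN1 are given as bounds. With those genes at their bounds the medians were 1.11 in del DBD against MN1 and 0.76 in MN1-TEL against MN1. A bound divides the fusion's mean by the mean of, on each MN1 array, the higher of the dimmest detected probe's signal and the gene's own signal. Among the called members, 6, 23 and 18 differed at least 2-fold in the 3 comparisons, with bounds in place of fitted folds. The arrays of the compared groups did not overlap for any called member. Neither the 2-fold differences nor the overlap was counted over all genes tested, so neither is a result particular to the members.

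Without the filter on dim probes, 51 members among 19057 genes could be tested. Then del DBD against MN1-TEL had 11 higher and 5 lower members (6.43% and 6.38% of all genes), del DBD against MN1 had 38 and 0 (8.26% and 8.76%), and MN1-TEL against MN1 had 32 and 2 (12.5% and 14.4%). Without MN1-TEL replicate 2, 10 members were higher and 3 lower in del DBD against MN1-TEL, 35 and 1 in del DBD against MN1, and 29 and 5 in MN1-TEL against MN1.

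These counts rest on quantile normalization. With arrays scaled to 1 median instead, the median of all genes moved by 0.37 in del DBD against MN1 and by 0.46 in MN1-TEL against MN1, and 87.1% and 81.4% of all calls were higher. The members then counted 5 higher and 4 lower in del DBD against MN1-TEL, 37 and 1 in del DBD against MN1 and 33 and 2 in MN1-TEL against MN1. With the median taken over detected probes alone, a setting chosen after seeing the data, the median of all genes moved by -0.12 and -0.11 in the comparisons with MN1, and 33.3% and 37.3% of all calls were higher. The members counted 8 and 4, 32 and 2, and 27 and 4 in the same order of comparisons. In del DBD against MN1 the members' median was 1.55 with arrays scaled to 1 median and 1.05 with detected probes alone, beside 0.34 and -0.16 over all genes.

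**Figure D2:**
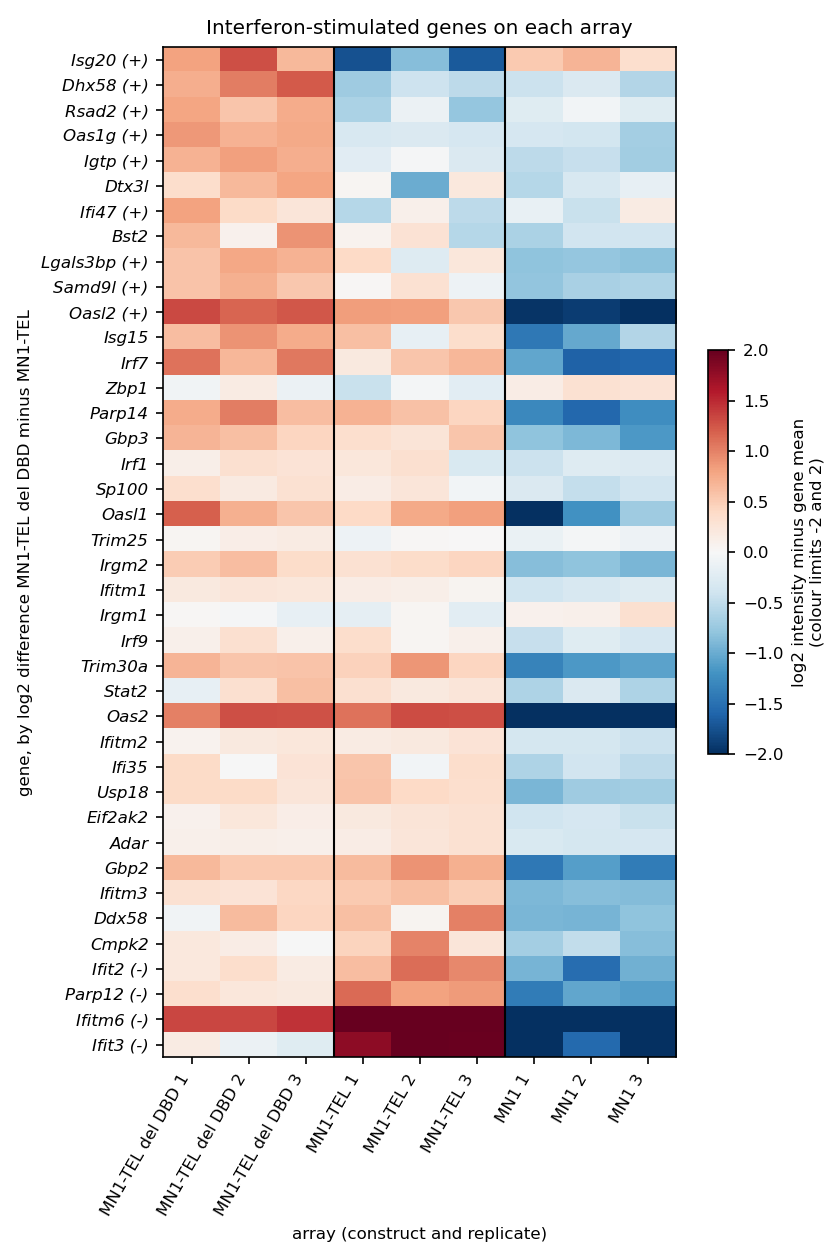
Log2 intensity of each of the 40 members on each of the 9 arrays, minus that gene's mean over the arrays (colour, limited to -2 and 2), with genes ordered by the difference of del DBD minus MN1-TEL. A plus or minus sign marks the 9 members called higher and the 4 called lower in that comparison, and most rows are blue on the MN1 arrays. Median deviation was 0.42 to 0.46 on the del DBD arrays, 0.25 to 0.31 on the MN1-TEL arrays and -0.66 to -0.49 on the MN1 arrays.

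By group means, 20 members ran from del DBD through MN1-TEL down to MN1, and 14 from MN1-TEL through del DBD down to MN1. In 4 members del DBD was highest and MN1-TEL lowest, and in 2 MN1 was highest and MN1-TEL lowest. Adjacent means in these orders often did not differ beyond the spread between arrays, since 27 members did not pass the test between del DBD and MN1-TEL. How often each order occurs over all genes tested was not counted, so the orders are not shown to be particular to the members.

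Other cell types' markers moved in the same comparisons, where the shares of all genes called are those given above. Of 7 progenitor markers tested, Kit among them, 4 were higher and 2 lower in del DBD against MN1-TEL. In del DBD against MN1 none was higher (1 at an unadjusted p under 0.05) and 5 were lower. In MN1-TEL against MN1 1 was higher and 4 were lower. Of 12 mature neutrophil markers tested, 10 were higher in del DBD against MN1 and 11 in MN1-TEL against MN1, and 7 were lower and 1 higher in del DBD against MN1-TEL. Their summed linear intensity was 96116 to 103319 on the del DBD arrays, 130221 to 145123 on the MN1-TEL arrays and 7413 to 8590 on the MN1 arrays. For 8 monocyte and macrophage markers tested, 6 were higher and 1 lower in del DBD against MN1, 7 and 1 in MN1-TEL against MN1, with 1 higher and 5 lower for del DBD against MN1-TEL. Their sums were 20234 to 25254 with del DBD, 42146 to 49957 with MN1-TEL and 4390 to 5474 with MN1. The neutrophil markers Ltf, Ngp, Cd177, Itgb2l and Retnlg and the macrophage marker Fcgr1 were not detected on any MN1 array. In RNA from bulk cultures, fewer cells of a type and less RNA per cell cannot be told apart, and the part of these markers in the members' differences was not tested.

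Plasmacytoid dendritic cells are a known source of type I interferon. Of 9 of their markers on the array only Tcf4 and Cox6a2 were tested, and Ly6d, Ccr9, Klk1, Spib and Cd209d were not detected on any array. Both tested markers were higher in del DBD than in MN1-TEL and lower with each fusion than with MN1. Of 9 markers of T and NK cells, the sources of interferon gamma, 7 were not detected on any array, among them Cd3e, Cd3g and Ncr1. The other 2 were tested, and neither was called between the fusions (1 higher at an unadjusted p under 0.05). In del DBD against MN1 1 was higher, and in MN1-TEL against MN1 1 was higher and 1 lower.

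The transcription factors among the members are described first, and all 4 on the list were tested. None passed the test between del DBD and MN1-TEL (Irf7 alone at an unadjusted p under 0.05, and Irf1 with the mean of its probes), all 4 were higher in del DBD against MN1, and 3 were higher in MN1-TEL against MN1. Irf7, which amplifies interferon alpha production, read 7.95, 7.53 and 7.92 on the del DBD arrays, 7.05, 7.42 and 7.52 on the MN1-TEL arrays and 5.81, 5.24 and 5.26 on the MN1 arrays. Every fusion array lay above every MN1 array, and the lowest del DBD array lay just above the highest MN1-TEL array. It was at least 3.08-fold higher in del DBD than in MN1 cells (limma adjusted p = 1.76e-05) and at least 2.23-fold higher in MN1-TEL than in MN1 cells (adjusted p = 4.01e-05). Between del DBD and MN1-TEL the log2 difference was 0.47 (SE 0.20, limma adjusted p = 0.105).

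Irf9, the DNA-binding subunit of the complex that holds Stat2, read 9.61, 9.82 and 9.61 with del DBD, 9.86, 9.54 and 9.61 with MN1-TEL and 9.04, 9.27 and 9.17 with MN1. Stat2, its transactivating partner, read 7.86, 8.35 and 8.64 with del DBD, 8.35, 8.23 and 8.26 with MN1-TEL and 7.41, 7.74 and 7.41 with MN1. For both genes the fusion arrays lay among each other and above the MN1 arrays. Irf9 was higher by 0.52 (SE 0.12) in del DBD against MN1 and by 0.51 (SE 0.12) in MN1-TEL against MN1, with limma adjusted p = 0.00861 and 0.00581. Stat2 was higher by 0.76 (SE 0.18) in each of these comparisons, with limma adjusted p = 0.0110 and 0.00681. Between del DBD and MN1-TEL the 95% interval of the difference ran from -0.26 to 0.28 for Irf9 and from -0.41 to 0.42 for Stat2.

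Irf1, which answers mainly to interferon gamma, read 11.52, 11.72 and 11.68 with del DBD, 11.63, 11.72 and 11.10 with MN1-TEL and 10.97, 11.14 and 11.13 with MN1. MN1-TEL replicate 3 fell among the MN1 arrays and both other MN1-TEL arrays did not. Irf1 was higher by 0.56 (SE 0.16) in del DBD against MN1 (limma adjusted p = 0.0231), and by 0.40 in MN1-TEL against MN1, which did not pass (adjusted p = 0.0598). The first call was lost without MN1 replicate 1, 2 or 3 (adjusted p = 0.0837, 0.0542 and 0.0520) and without del DBD replicate 2 or 3 (0.0766 and 0.0709). That call was also lost with the median over detected probes (0.116). In MN1-TEL against MN1 Irf1 passed in 4 alternatives, among them without MN1-TEL replicate 3 (0.00300). Between the fusions Irf1 was higher with del DBD by 0.39 with the mean of its probes (0.0306) and by 0.60 on its dimmest kept probe (adjusted over all kept probes, 0.0383). Against MN1 the kept probes differed. The second brightest was higher by 0.92 in del DBD and by 0.50 in MN1-TEL (limma, adjusted over all kept probes, 0.00118 and 0.0152). On the dimmest these differences were 0.27 and -0.33, and neither passed (0.284 and 0.156).

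Enzymes of the oligoadenylate synthetase family make the messenger that activates RNase L on double-stranded RNA, though not every member of the family has that activity. Of 6 listed genes 4 were tested, all higher in del DBD against MN1 and 3 in MN1-TEL against MN1. Oas2 read 8.25, 8.53 and 8.52 with del DBD, 8.32, 8.55 and 8.53 with MN1-TEL, and 4.70, 4.86 and 4.90 with MN1, where it was not detected. Fusion arrays were interleaved and stood above the MN1 arrays. Oas2 was at least 4.79-fold higher in del DBD than in MN1 cells (limma adjusted p = 6.90e-08) and at least 4.91-fold higher in MN1-TEL than in MN1 cells (3.94e-08). Between the fusions its 95% interval was -0.31 to 0.23.

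Oasl2 read 10.94, 10.78 and 10.86 with del DBD, 10.46, 10.45 and 10.16 with MN1-TEL and 7.66, 7.72 and 7.55 with MN1, so that the 3 groups formed 3 separate steps. It was 9.30-fold higher in del DBD than in MN1 cells (log2 3.22, SE 0.11, limma adjusted p = 9.12e-08) and 6.56-fold higher in MN1-TEL than in MN1 cells (log2 2.71, SE 0.11, 1.35e-07). Between the fusions Oasl2 was higher with del DBD by 0.51 (SE 0.11, adjusted p = 0.00930), a call lost with arrays scaled to 1 median (0.36, adjusted p = 0.0682). Oasl1 read 8.79, 8.30 and 8.15 with del DBD, 8.0, 8.36 and 8.42 with MN1-TEL and 5.07, 6.38 and 6.88 with MN1. MN1 replicate 1 lay well below the other MN1 arrays and was the one on which Oasl1 was not detected. Oasl1 was higher by 2.31 (SE 0.39) in del DBD against MN1 and by 2.15 (SE 0.39) in MN1-TEL against MN1, with limma adjusted p = 0.00173 and 0.00140.

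Oas1g behaved otherwise. It read 9.69, 9.51 and 9.59 with del DBD, 8.50, 8.54 and 8.48 with MN1-TEL and 8.49, 8.45 and 8.14 with MN1. Its del DBD arrays stood apart, and the MN1-TEL and MN1 arrays overlapped. It was 2.13-fold higher in del DBD than in MN1-TEL cells (limma adjusted p = 0.000153) and 2.36-fold higher than in MN1 cells (3.63e-05), and the difference of MN1-TEL from MN1 was 0.15 (95% interval -0.11 to 0.41). With arrays scaled to 1 median, Oas1g also passed in MN1-TEL against MN1 (0.74, adjusted p = 0.000877). A second, dimmer kept probe of Oas1g did not pass between the fusions (0.99, adjusted over all kept probes, 0.0748), and its del DBD and MN1-TEL arrays overlapped. By that probe Oas1g was at least 1.75-fold higher in del DBD than in MN1 cells (0.0128). Oas1a was detected on no array and Oas3 on 2 del DBD arrays, and the Oas1 genes are close enough in sequence that a probe may bind several of them.

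Among 6 genes that bind viral or cellular RNA and DNA, 5 were tested. Dhx58, the helicase LGP2 that tunes the RIG-I pathway, read 9.97, 10.26 and 10.47 with del DBD, 8.53, 8.83 and 8.72 with MN1-TEL and 8.81, 8.95 and 8.66 with MN1. Only the del DBD arrays were high, and the other groups overlapped. Dhx58 was 2.91-fold higher in del DBD than in MN1-TEL cells (log2 1.54, SE 0.15, limma adjusted p = 9.68e-05) and 2.69-fold higher than in MN1 cells (log2 1.43, SE 0.15, 7.32e-05). Its difference of MN1-TEL from MN1 was -0.11 (adjusted p = 0.543), and turned to 0.47 with arrays scaled to 1 median (0.0203).

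Ddx58, which encodes the RNA sensor RIG-I, was higher by 1.21 in del DBD against MN1 and by 1.43 in MN1-TEL against MN1 (SE 0.24 each, limma adjusted p = 0.00419 and 0.000899). Eif2ak2, the kinase PKR that halts translation on double-stranded RNA, was higher by 0.54 and 0.64, and Adar, which edits adenosine in such RNA, by 0.44 and 0.56, in the same order of comparisons (SE 0.09 each). Neither call of Adar held when its probes were averaged (adjusted p = 0.337 and 0.635). Zbp1, a sensor of Z-form nucleic acid, read 7.56, 7.80 and 7.52 with del DBD, 7.19, 7.60 and 7.43 with MN1-TEL and 7.78, 7.94 and 7.90 with MN1. It was lower by 0.47 on the log2 scale in MN1-TEL than in MN1 cells (limma adjusted p = 0.0126), one of only 2 members that were lower there, but its difference turned to 0.081 with arrays scaled to 1 median (0.638). Ifih1, which encodes the sensor MDA5, was detected on no array.

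IFIT proteins bind foreign RNA and block its translation, and both tested members were lower with del DBD than with MN1-TEL and higher with either fusion than with MN1. Ifit3 read 7.53, 7.24 and 7.13 with del DBD, 9.15, 9.43 and 9.35 with MN1-TEL, and 5.31, 5.82 and 5.34 with MN1, where it was not detected. The 3 groups did not overlap. Ifit3 was 4.03-fold lower in del DBD than in MN1-TEL cells (log2 -2.01, SE 0.17, limma adjusted p = 4.42e-05). It was at least 2.18-fold higher in del DBD than in MN1 cells (3.31e-05) and at least 8.80-fold higher in MN1-TEL than in MN1 cells (1.69e-07).

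Ifit2 read 9.64, 9.78 and 9.60 with del DBD, 10.05, 10.56 and 10.40 with MN1-TEL and 8.50, 7.90 and 8.47 with MN1, again in 3 separate steps. It was lower by 0.66 on the log2 scale in del DBD than in MN1-TEL cells (SE 0.18, limma adjusted p = 0.0247), and higher by 1.38 in del DBD against MN1 and by 2.04 in MN1-TEL against MN1 (SE 0.18 each, adjusted p = 0.000394 and 1.59e-05). The call between the fusions was lost without MN1-TEL replicate 2 or 3 (adjusted p = 0.0559 and 0.0638), without del DBD replicate 1 or 3 (0.0670 and 0.0811) and with array weights (0.0736). On a second kept probe of Ifit2 the difference between the fusions was -0.52 and did not pass (adjusted over all kept probes, 0.0554). That probe was higher in del DBD and in MN1-TEL than in MN1 cells (0.00142 and 6.93e-05). Ifit1 was detected on no array, although its promoter held 2 cores, as did that of Ifit3.

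IFITM proteins sit in membranes and hinder the entry of enveloped viruses. Ifitm6 is a member of this family named from the mouse and read 10.30, 10.29 and 10.41 with del DBD, 11.38, 11.97 and 11.67 with MN1-TEL, and 4.75, 5.05 and 4.81 with MN1, where it was not detected. Ifitm6 was at least 17.9-fold higher in del DBD than in MN1 cells (limma adjusted p = 2.96e-08) and at least 45.3-fold higher in MN1-TEL than in MN1 cells (5.65e-09). It was 2.54-fold lower in del DBD than in MN1-TEL cells (log2 -1.34, SE 0.15, 0.000235). In that comparison 7 of the 12 neutrophil markers and 5 of the 8 monocyte and macrophage markers were lower too, and 1 of each list was higher. A link of Ifitm6 to either list was not tested.

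Ifitm3, the best known restriction factor of the family, read 14.78, 14.75 and 14.89 with del DBD, 15.0, 15.08 and 14.97 with MN1-TEL and 13.59, 13.62 and 13.60 with MN1. Ifitm2 read 14.60, 14.72 and 14.74 with del DBD, 14.68, 14.72 and 14.79 with MN1-TEL and 14.16, 14.16 and 14.09 with MN1. Both were high on every fusion array and lower on every MN1 array. Ifitm3 was higher by 1.21 in del DBD against MN1 and by 1.42 in MN1-TEL against MN1 (SE 0.09 each, limma adjusted p = 8.02e-06 and 1.60e-06). Ifitm2 was higher by 0.55 and 0.59 (0.00149 and 0.000502). The Ifitm2 calls were lost with the median taken over detected probes (0.065 and 0.12, adjusted p = 0.680 and 0.401).

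Ifitm1 had 5 kept probes, and they did not point the same way. The brightest one read 15.21, 15.26 and 15.24 with del DBD, 15.17, 15.14 and 15.08 with MN1-TEL and 14.62, 14.70 and 14.76 with MN1. By that probe Ifitm1 was higher by 0.54 in del DBD against MN1 and by 0.44 in MN1-TEL against MN1 (limma adjusted p = 0.00132 and 0.00246). A second probe read 14.85, 14.91 and 14.99 with del DBD, 14.82, 14.91 and 14.86 with MN1-TEL and 15.20, 15.24 and 15.18 with MN1. On it every fusion array lay below every MN1 array, by 0.29 and 0.34 (adjusted over all kept probes, 0.0421 and 0.0134), while the other 4 probes were higher in both comparisons. In 8 alternatives, both median scalings and the omission of any del DBD or MN1-TEL array, the second probe became the brightest and the gene's sign against MN1 turned. Leaving out 1 array then gave -0.33 to -0.26 in del DBD against MN1 and -0.38 to -0.33 in MN1-TEL against MN1, so no direction is given for Ifitm1, although it stands among the higher members in the counts against MN1. Probes of this family may bind several of its similar genes.

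**Figure D3:**
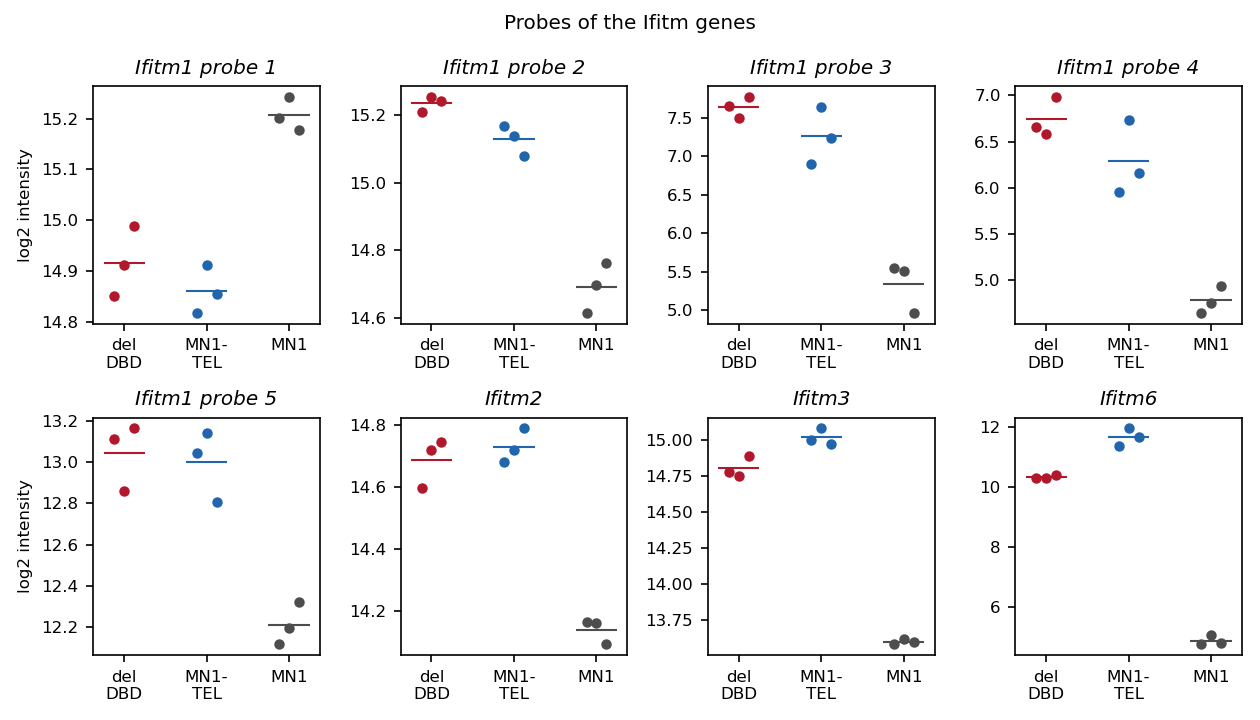
Log2 intensity on each array (points) and group mean (lines) for the 5 kept probes of Ifitm1 and for the probe that represents Ifitm2, Ifitm3 and Ifitm6, each panel with its own vertical axis. Probe 1 of Ifitm1 is higher with MN1 (15.18 to 15.24) than with either fusion, and every other panel is lower with MN1, on quantile-normalized values.

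Among 8 genes grouped here as antiviral effectors, 6 were tested and 4 were higher in del DBD against MN1-TEL, where 15.0% of all genes tested were higher. Members were placed in such groups by hand, so this count is not a result about antiviral effectors as a class. Isg20, an exonuclease that degrades RNA, read 8.0, 8.48 and 7.83 with del DBD, 5.45, 6.33 and 5.50 with MN1-TEL and 7.71, 7.87 and 7.53 with MN1. It was the MN1-TEL arrays that stood low, and only 1 of them detected the gene, while del DBD and MN1 arrays overlapped. Isg20 was 5.07-fold higher in del DBD than in MN1-TEL cells (log2 2.34, SE 0.25, limma adjusted p = 0.000157) and 3.83-fold lower in MN1-TEL than in MN1 cells (log2 -1.94, SE 0.25, 0.000167). These folds depend on the background step, since without background correction the log2 differences were 1.17 and -0.90, both still called (4.58e-05 and 0.000115). The difference of del DBD from MN1 was 0.40 (95% interval -0.16 to 0.97), and passed with arrays scaled to 1 median (0.92, 0.00841).

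Rsad2 encodes viperin, an enzyme that makes a chain-terminating nucleotide from CTP, and read 9.46, 9.23 and 9.41 with del DBD, 8.04, 8.55 and 7.89 with MN1-TEL and 8.42, 8.61 and 8.43 with MN1. Only the del DBD arrays stood apart. Rsad2 was 2.30-fold higher in del DBD than in MN1-TEL cells (limma adjusted p = 0.000704) and 1.84-fold higher than in MN1 cells (0.00314). In MN1-TEL against MN1 it did not pass (-0.33, adjusted p = 0.126), but without MN1-TEL replicate 2 (-0.52, 0.00410) and with array weights (-0.47, 0.0136) it was lower there. Its sign turned, without passing, with arrays scaled to 1 median (0.28, 0.147). Cmpk2, the mitochondrial nucleotide kinase encoded beside Rsad2, was higher by 0.79 in del DBD against MN1 and by 1.23 in MN1-TEL against MN1 (SE 0.19 each, adjusted p = 0.00905 and 0.000438). Between the fusions Cmpk2 ran the other way from Rsad2, at -0.44, without passing (adjusted p = 0.107), and passed without MN1-TEL replicate 3 (0.0429).

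Samd9l, a translation-restricting antiviral factor, read 13.63, 13.78 and 13.59 with del DBD, 13.08, 13.37 and 12.97 with MN1-TEL and 12.28, 12.41 and 12.44 with MN1. Lgals3bp, a secreted glycoprotein that binds galectins, read 12.69, 12.88 and 12.81 with del DBD, 12.52, 11.86 and 12.33 with MN1-TEL and 11.31, 11.34 and 11.29 with MN1. Both ran in steps from del DBD to MN1-TEL to MN1 with no overlap. Samd9l was higher by 0.53 (SE 0.12) in del DBD against MN1-TEL, by 1.29 in del DBD against MN1 and by 0.76 in MN1-TEL against MN1, with limma adjusted p = 0.0116, 4.49e-05 and 0.000682. Lgals3bp was higher by 0.56 (SE 0.16), 1.48 and 0.92 in the same order, with adjusted p = 0.0257, 8.61e-05 and 0.000931. Against MN1-TEL, the call of Samd9l was lost under both median scalings (0.107 and 0.0762) and that of Lgals3bp with arrays scaled to 1 median (0.0631), without del DBD replicate 2 or 3 (0.0839 and 0.0756) and with the fusion groups alone in the fit (0.0679).

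Bst2, the tether that holds budding viruses at the cell surface, was higher by 1.01 (SE 0.25) in del DBD against MN1 (limma adjusted p = 0.0122). Leaving out MN1 replicate 1 (0.0501) or del DBD replicate 3 (0.0511) ended that call. It passed in del DBD against MN1-TEL without MN1-TEL replicate 2 (0.0412) or del DBD replicate 2 (0.0406), and in MN1-TEL against MN1 without MN1-TEL replicate 3 (0.0399) or with arrays scaled to 1 median (0.00283). Mx1, a GTPase that blocks influenza virus, was detected on no array, and Mx2 on 2 MN1-TEL arrays.

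**Figure D4:**
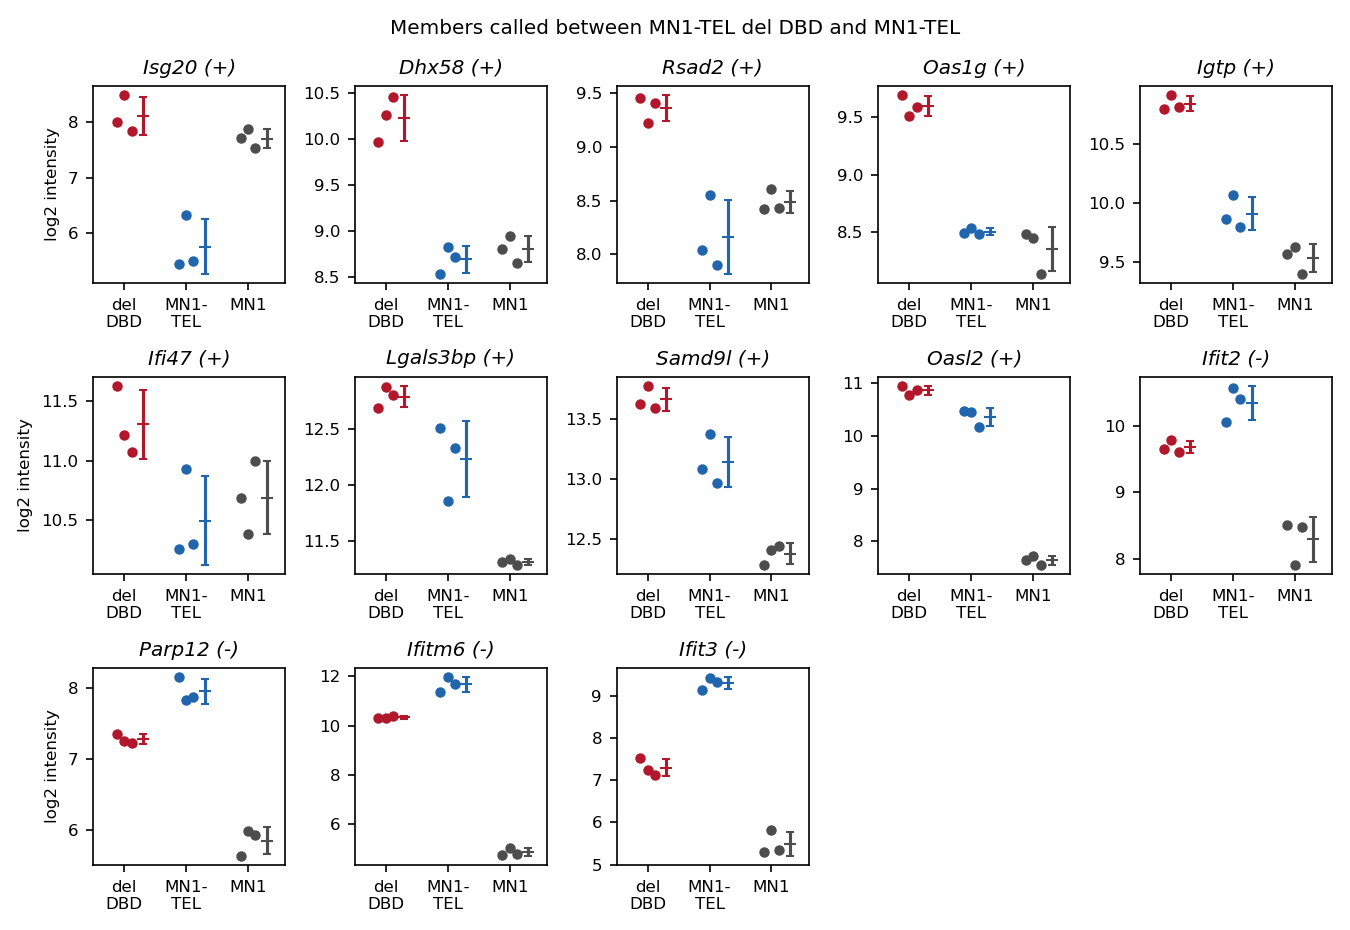
Log2 intensity on each array (points), group mean and SD (bars, n = 3) of the 13 members called between del DBD and MN1-TEL, with a plus sign for the 9 higher and a minus sign for the 4 lower with del DBD, each panel with its own vertical axis. Isg20 is low with MN1-TEL (5.45 to 6.33), whereas Dhx58, Rsad2 and Oas1g are high with del DBD alone, on quantile-normalized values.

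The interferon-inducible GTPases guard vacuoles and membranes against intracellular microbes, mainly in answer to interferon gamma. Of 7 listed, 6 were tested. Igtp, which encodes Irgm3, read 10.80, 10.92 and 10.82 with del DBD, 9.87, 10.07 and 9.80 with MN1-TEL and 9.57, 9.63 and 9.40 with MN1. The 3 groups did not overlap. It was 1.91-fold higher in del DBD than in MN1-TEL cells and 2.49-fold higher than in MN1 cells (limma adjusted p = 0.000294 and 1.93e-05). In MN1-TEL against MN1 it was higher by 0.38 (SE 0.11, adjusted p = 0.0159), which was lost without MN1 replicate 3 (0.0645).

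Ifi47, an IRG-family GTPase, read 11.63, 11.21 and 11.07 with del DBD, 10.26, 10.93 and 10.30 with MN1-TEL and 10.68, 10.38 and 11.00 with MN1. The lowest del DBD array lay just above the highest array of each other group. Ifi47 was higher by 0.81 (SE 0.23) in del DBD against MN1-TEL (limma adjusted p = 0.0262). The call was lost without MN1-TEL replicate 1 or 3 (0.0832 and 0.0766), without del DBD replicate 1 or 2 (0.0882 and 0.0567), and under both median scalings (0.0655 and 0.0599). Its difference from MN1 (0.62, adjusted p = 0.0612) passed in 7 alternatives (0.00576 to 0.0475), among them without MN1 replicate 3 (0.0475) or MN1-TEL replicate 2 (0.0243). Its difference of MN1-TEL from MN1 was -0.19 and turned, without passing, with arrays scaled to 1 median (0.35, 0.218).

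Irgm2, a regulator of the other GTPases of its family, and the guanylate-binding proteins Gbp2 and Gbp3 separated both fusions from MN1. Gbp2 was higher by 1.88 in del DBD against MN1 and by 2.06 in MN1-TEL against MN1 (SE 0.12 each, limma adjusted p = 3.63e-06 and 1.10e-06). Gbp3 was higher by 1.52 and 1.33, and Irgm2 by 1.35 and 1.23, in the same order. Between the fusions the 95% interval of the difference was -0.46 to 0.09 for Gbp2, -0.11 to 0.48 for Gbp3 and -0.10 to 0.35 for Irgm2. A second kept probe of Gbp3 was higher with del DBD by 0.51 (adjusted over all kept probes, 0.0356). The kept probes of Irgm1 disagreed, so no direction is given for it. Its brightest probe did not pass in any comparison (0.06 in del DBD against MN1-TEL, -0.23 in del DBD against MN1 and -0.28 in MN1-TEL against MN1), but it passed as lower in MN1-TEL against MN1 in 5 alternatives and in del DBD against MN1 with the median over detected probes (-0.63, adjusted p = 0.00895). The second kept probe of Irgm1 was higher by 0.40, 0.87 and 0.47 in the 3 comparisons (adjusted over all kept probes, 0.0419, 0.000760 and 0.0110). The mean of the probes was higher by 0.32 in del DBD against MN1 (adjusted p = 0.0449). Iigp1 was detected on no array. IRG and guanylate-binding genes lie in families of near-identical sequence, so a probe may bind several.

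ISG15 is a ubiquitin-like protein joined to other proteins, and Usp18 removes it and also damps the interferon receptor. Isg15 read 7.24, 7.51 and 7.35 with del DBD, 7.22, 6.46 and 6.97 with MN1-TEL, and 5.19, 5.59 and 6.02 with MN1, where it was not detected. Every del DBD array lay above every MN1-TEL array, and all fusion arrays above MN1. It was at least 2.29-fold higher in del DBD than in MN1 cells and at least 1.63-fold higher in MN1-TEL than in MN1 cells (limma adjusted p = 0.000410 and 0.00151), and between the fusions the difference was 0.49 (adjusted p = 0.156). Usp18 was higher by 1.10 and 1.20 in del DBD and MN1-TEL against MN1 (SE 0.11 each, 5.68e-05 and 1.76e-05).

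Parp12 and Parp14 attach ADP-ribose to proteins. Parp12 read 7.36, 7.25 and 7.22 with del DBD, 8.16, 7.83 and 7.88 with MN1-TEL, and 5.63, 5.98 and 5.93 with MN1, where it was not detected. The 3 groups formed separate steps with MN1-TEL on top. Parp12 was 1.60-fold lower in del DBD than in MN1-TEL cells (limma adjusted p = 0.00430), at least 2.15-fold higher in del DBD than in MN1 cells (3.26e-05) and at least 3.44-fold higher in MN1-TEL than in MN1 cells (1.42e-06). Parp14 was higher by 2.15 in del DBD against MN1 and by 1.94 in MN1-TEL against MN1 (SE 0.14 each), with an interval of -0.10 to 0.54 between the fusions. Parp9 was detected on 2 del DBD arrays.

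Dtx3l, the ubiquitin ligase that works with Parp9, was higher by 0.94 (SE 0.28) in del DBD against MN1 (limma adjusted p = 0.0279). That call was lost without MN1 replicate 1 or 2 (0.0981 and 0.0698) or del DBD replicate 2 or 3 (0.0792 and 0.0936). In del DBD against MN1-TEL Dtx3l lay just outside the threshold (0.84, adjusted p = 0.0523) and passed in 6 alternatives (0.0252 to 0.0445), among them without MN1-TEL replicate 3 (0.0254), and in MN1-TEL against MN1 it passed without MN1-TEL replicate 2 (0.0338). Trim30a, a tripartite-motif protein of the mouse, was higher by 1.79 and 1.78 in del DBD and MN1-TEL against MN1 (SE 0.14 each). Trim25, the ubiquitin ligase of the RIG-I pathway, did not pass in any comparison (0.13, 0.20 and 0.07). With arrays scaled to 1 median, Trim25 was higher by 0.53 in del DBD against MN1 and by 0.54 in MN1-TEL against MN1 (limma adjusted p = 0.00385 and 0.00209), and it also passed with array weights in del DBD against MN1 (0.0453).

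Of the remaining 7 genes only Ifi35 and Sp100 were tested. Ifi35, a partner of the protein NMI, was higher by 0.73 in del DBD against MN1 and by 0.80 in MN1-TEL against MN1 (SE 0.17 each, limma adjusted p = 0.00895 and 0.00329). Sp100, a scaffold of PML nuclear bodies, was higher by 0.65 and 0.49 (SE 0.11 each, 0.00165 and 0.00436). Ifi204, Rtp4 and Xaf1 were detected on no array.

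The split by del DBD against MN1-TEL left 3 kinds of member, and their values in that comparison are those that made the split. Just inside the threshold on the higher side lay Ifi47 and Lgals3bp (adjusted p = 0.0262 and 0.0257) and just outside Dtx3l (0.0523), and on the lower side Ifit2 (0.0247) lay inside and Cmpk2 and Ifitm3 (0.107 and 0.108) outside. The 9 higher members had a median of 0.93 and a range of 0.51 to 2.34, and the 4 lower ones a range of -2.01 to -0.66. Against MN1, the 9 higher members had a median of 1.29 in del DBD (7 higher) and 0.15 in MN1-TEL (4 higher, 1 lower). The 4 lower members, Ifit3, Ifitm6, Parp12 and Ifit2, had medians of 1.25 and 2.59 with Ifit3, Ifitm6 and Parp12 at their bounds (1.62 and 2.97 as fitted), and all 4 were higher in both. The 27 members that did not pass had medians of 0.94 and 0.76 with bounds (0.94 and 0.80 as fitted), with 24 higher in del DBD and 21 higher and 1 lower in MN1-TEL. These comparisons share the arrays that made the split and were not tested between the kinds.

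**Figure D5:**
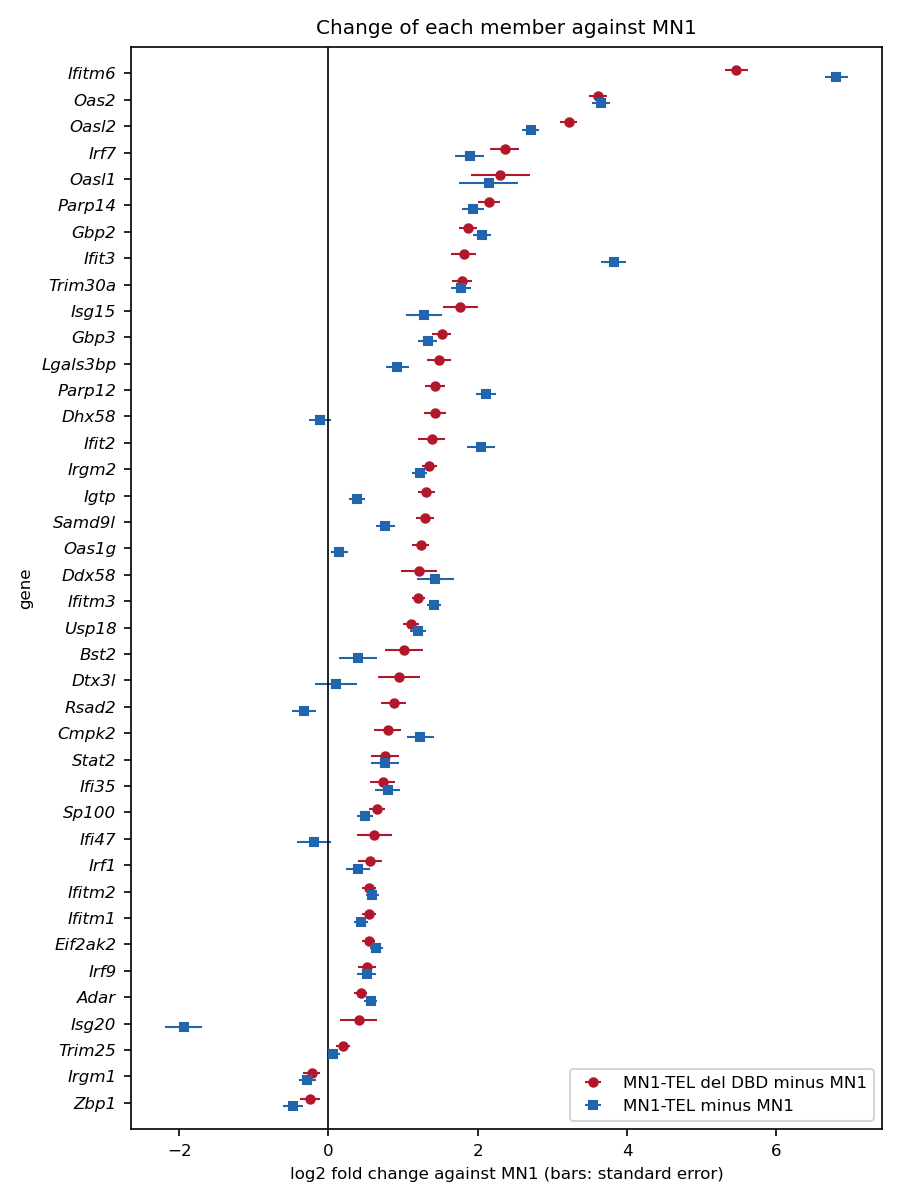
Log2 fold change against MN1 of each of the 40 members (horizontal axis) with del DBD (circles) and with MN1-TEL (squares), bars giving the standard error. For the 6 members not detected with MN1 the fitted difference is plotted, not the bound. Most pairs lie close together to the right of 0, Dhx58, Rsad2, Oas1g, Igtp and Isg20 have the circle far to the right of the square, and Ifit3, Ifitm6, Parp12 and Ifit2 have the square to the right. With arrays scaled to 1 median the square changes sign for Dhx58, Rsad2, Ifi47 and Zbp1 and the circle for Zbp1, and under both median scalings both signs turn for Ifitm1. The square also turns for Trim25 with the median over detected probes and for Dtx3l without some arrays, and both signs turn for Irgm1 with the mean of its probes.

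The 9 higher members fell into several patterns. Igtp, Lgals3bp, Samd9l and Oasl2 passed as higher in all comparisons. Dhx58, Rsad2 and Oas1g were higher with del DBD than with either other construct, with no call in MN1-TEL against MN1. Isg20 was called lower in MN1-TEL than with both other constructs, and Ifi47 was called only between the fusions.

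Probes other than the brightest gave a further view of the members. Of the 103 probes 60 were kept, and 12 genes had more than 1. Among all 60, 14 were higher and 4 lower in del DBD against MN1-TEL (11.9% and 11.5% of the 15870 kept probes), 48 and 1 in del DBD against MN1 (15.6% and 15.8%), and 39 and 4 in MN1-TEL against MN1 (23.0% and 25.7%). Of the 20 probes that were not their gene's brightest, 2, 13 and 9 were called along with the brightest in the 3 comparisons, and 2, 12 and 8 of these had its sign. The exception in both comparisons with MN1 was Ifitm1.

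Motifs and differences can be set side by side for 35 tested members with a promoter. Of the 16 with an ISRE core, 3 were higher and 1 lower in del DBD against MN1-TEL, 15 were higher in del DBD against MN1 and 12 in MN1-TEL against MN1. Of the 19 without one, 5 were higher and 3 lower, 16 were higher, and 14 were higher and 1 lower, in the same order. Median fitted log2 differences were 0.034, 1.23 and 0.99 with a core and 0.16, 0.79 and 0.76 without. Outside the list, 277 tested genes had a core, and 19.5%, 24.9% and 29.6% of them were higher in the 3 comparisons, against 14.6%, 17.2% and 24.5% of 7208 genes without a core. Lower were 15.5%, 15.9% and 28.9% of those with a core, against 14.2%, 19.3% and 29.6% of those without. The promoters of Oasl2, Lgals3bp, Samd9l, Ifi47 and Isg20, all higher with del DBD than with MN1-TEL, held no core in this window, and neither did those of Ifit2, Parp12 and Ifitm6, all lower.

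The rest of the pathway was followed through 6 lists that hold none of the members except Usp18. Their counts stand beside 15.0% higher and 14.4% lower of all genes tested in del DBD against MN1-TEL, 18.0% and 19.1% in del DBD against MN1, and 25.3% and 29.4% in MN1-TEL against MN1, and a count near these shares is no result about a list. Among interferon ligands, 20 were on the array and 15 were detected nowhere, among them Ifnb1 and Ifng, the genes of interferon beta and gamma. Ifna1, Ifna6 and Ifnab were tested, and a probe for 1 of these near-identical genes may bind others. Ifnab was higher by 0.49 in del DBD against MN1 and by 0.52 in MN1-TEL against MN1, and Ifna6 was lower by 0.42 on the log2 scale in MN1-TEL against MN1 (limma adjusted p = 0.00397, 0.00160 and 0.0416).

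Of 7 receptor and kinase genes tested, 5 were higher in each comparison with MN1. Ifnar2 was higher by 0.88 in del DBD against MN1 and by 0.90 in MN1-TEL against MN1, and Ifngr2 by 1.08 and 1.14. Ifngr1 was higher by 0.58 in del DBD against MN1 (limma adjusted p = 0.00426) and by 0.27 in MN1-TEL against MN1, which did not pass (0.0730). Jak2, the kinase of the interferon gamma receptor, was higher by 1.43 and 1.57 (3.11e-05 and 8.74e-06). Jak1 was the gene of this list that differed between the fusions, lower by 0.33 on the log2 scale with del DBD (0.0446). Ifnar1, with 1 probe, was detected on no array.

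Among 11 STAT and IRF factors outside the members, 3 were higher and none lower in del DBD against MN1-TEL (1 lower at an unadjusted p under 0.05), 3 and 2 in del DBD against MN1, and 2 and 5 in MN1-TEL against MN1. Irf4, a lymphoid and dendritic cell regulator, was at least 2.33-fold higher in del DBD than in MN1 cells and at least 2.52-fold higher in MN1-TEL than in MN1 cells. Irf5, which drives inflammatory cytokines in myeloid cells, was higher by 1.65 and 1.61 (limma adjusted p = 5.20e-06 and 3.25e-06). Irf8, a factor of monocyte and dendritic cell fate, read 8.81, 8.77 and 8.82 with del DBD, 8.09, 8.55 and 7.97 with MN1-TEL and 8.11, 7.99 and 8.20 with MN1. Only its del DBD arrays stood high, and it was higher by 0.60 in del DBD against MN1-TEL and by 0.70 in del DBD against MN1 (0.0145 and 0.00535). Stat4 and Stat3 were higher by 0.88 and 0.41 in del DBD against MN1-TEL (0.000423 and 0.00747), and lower by 0.80 and 0.44 on the log2 scale in MN1-TEL against MN1 (0.000268 and 0.00246).

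Of 17 genes that restrain the pathway, 2 were higher and 4 lower in del DBD against MN1-TEL, 8 and 1 in del DBD against MN1, and 11 higher and none lower in MN1-TEL against MN1 (1 lower at an unadjusted p under 0.05). Socs3, an inhibitor of receptor kinases, was higher by 0.29, 1.13 and 0.84 in the 3 comparisons (limma adjusted p = 0.0402, 1.41e-05 and 5.16e-05). Nlrc5, which drives MHC class I genes, was higher by 0.93, 1.51 and 0.58 (0.00257, 9.35e-05 and 0.0137). Ptpn2, a phosphatase of STAT proteins, was lower by 0.84 on the log2 scale in del DBD than in MN1-TEL cells and higher by 1.19 in MN1-TEL against MN1 (0.000704 and 2.70e-05). Nlrx1, a mitochondrial member of the NLR family, was higher by 2.01 and 1.95 in del DBD and MN1-TEL against MN1. Socs1, detected on all 3 MN1-TEL arrays, no del DBD array and 1 MN1 array, was at least 1.55-fold lower in del DBD than in MN1-TEL cells (0.0482).

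Of 17 sensors and adaptors upstream of interferon, 4 were higher and 2 lower in del DBD against MN1-TEL, 10 and 1 in del DBD against MN1, and 9 and 2 in MN1-TEL against MN1. Nod1, a sensor of bacterial peptidoglycan, was higher by 3.45 in del DBD against MN1 and by 3.18 in MN1-TEL against MN1 (limma adjusted p = 1.08e-07 and 9.99e-08). Tlr7, the endosomal sensor of single-stranded RNA, read 7.62, 7.68 and 7.79 with del DBD, 9.36, 9.89 and 9.44 with MN1-TEL and 5.56, 6.23 and 5.22 with MN1, where 1 array detected it. Its groups formed the same 3 steps as those of Ifit3, with -1.87 in del DBD against MN1-TEL, 2.03 in del DBD against MN1 and 3.89 in MN1-TEL against MN1 (0.000481, 0.000184 and 1.41e-06). Ticam2, an adaptor of Tlr4, was higher by 1.53 in del DBD against MN1-TEL and lower by 2.52 on the log2 scale in MN1-TEL against MN1 (0.000119 and 1.32e-06).

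Genes of the interferon gamma and MHC class I response outside the members numbered 14 tested, of which 6 were higher and 2 lower in del DBD against MN1-TEL, 5 higher and none lower in del DBD against MN1 (none at an unadjusted p under 0.05), and 4 and 5 in MN1-TEL against MN1. Tap1, a chain of the peptide transporter, read 9.66, 9.49 and 9.73 with del DBD, 8.72, 8.62 and 8.78 with MN1-TEL and 9.19, 9.38 and 9.14 with MN1, so that the MN1-TEL arrays were low. Tap1, Tap2 and the immunoproteasome subunit Psmb9 were higher by 0.92, 0.91 and 0.96 in del DBD against MN1-TEL (limma adjusted p = 0.000294, 0.00136 and 0.000276). In MN1-TEL against MN1 the same genes were lower by 0.53, 0.69 and 0.66 on the log2 scale (0.00273, 0.00282 and 0.000951). The inducible chemokines Cxcl9, Cxcl10 and Cxcl11, with Ciita, Gbp5, Gbp6, Ido1 and Nos2, were detected on no array.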

How the data were processed

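GenomeStudio 2010.3 is named in the submitters' processing notes, and what it was used for is not given in the sources used here. A table deposited by the authors holds an intensity per probe and array, not normalized as judged from its values, and, per the file headers, a detection p-value beside each intensity. A deposited table of normalized intensity served as an alternative.

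Intensities were background-corrected with normexp, given an offset of 16, quantile normalized and taken to log2 (neqc, limma 3.58.1, R 4.3.3). Of 45281 probes, 34885 had 1 gene symbol in the platform annotation, 18 several and 10378 none. Probes detected (p-value below 0.01) on 3 or more of the 9 arrays were kept (15870), and the brightest kept probe stood for its gene. Limma fitted all 9 arrays with construct as the factor and 6 residual degrees of freedom, with two-sided moderated tests. Of these steps only the limma fit was tried on simulated data, for del DBD against MN1-TEL. Background correction, normalization, the filter and the choice of probe were not. The main fit held no replicate block. Correlations of deviations from group means ran from -0.16 to 0.18 for same-numbered arrays of different groups and from -0.42 to 0.31 for differently numbered ones. With 3 arrays a group these values cannot exclude a pairing by replicate number.

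Members and lists were chosen with earlier results of these data known. Any member may be named. Values on every array are given for the 8 largest called rises and falls between the fusions, the 5 largest against MN1, the transcription factors, the Ifitm genes, members whose called probes disagree, and selected pathway genes. For other lists, up to 3 called genes per comparison with the smallest adjusted p and 10 genes chosen by name are described.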

Additional observations from a re-analysis of the deposited data

How the results depend on the processing

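Over the 40 members and 3 comparisons, 79 of 120 results were called, and 63 of these kept their call and direction in all 20 alternatives that could give a value; 17 of the 41 others passed in some alternative. With the authors' normalized values and without a filter on dim probes, all 120 kept their side of the threshold. Members higher in del DBD against MN1-TEL numbered 5 with arrays scaled to 1 median, and 8 to 10 when each array was left out in turn. Members lower there numbered 1 when detection on all 9 arrays was required, where fewer genes were tested, and 3 to 4 with an array left out. In del DBD against MN1, 31 to 35 were higher with an array left out; lower members numbered 1 with arrays scaled to 1 median, 2 with the median over detected probes and 0 to 1 with an array left out. In MN1-TEL against MN1, 28 to 30 were higher with an array left out; lower members numbered 4 with the median over detected probes, 1 with detection on all arrays, 4 with array weights and 2 to 5 with an array left out. Signs of called results turned for Zbp1 in MN1-TEL against MN1 (0.081) with arrays scaled to 1 median and for Ifitm1 in both comparisons with MN1. Of results not called, 20 changed sign in at least 1 alternative, 12 of them between the fusions, and of these Dhx58 in MN1-TEL against MN1 (0.47) passed with arrays scaled to 1 median and Irgm1 in del DBD against MN1 (0.32) with the mean of probes. Folds of called results moved by over 1.5 times for 17 results without background correction, all toward smaller, and for 9 with arrays scaled to 1 median, all toward larger. Ifitm1 turned in del DBD against MN1 to -0.51 with arrays scaled to 1 median, -1.0 with detected probes alone and -0.33 to 0.55 with an array left out, and in MN1-TEL against MN1 to -0.46, -1.04 and -0.38 to 0.45, where in each turned case another probe stood for the gene; the cause of the other changes was not tested. The share of promoters with an ISRE core was 26.2% with CT required after the core and 40.5% with the 50 bases after the start left out. With the replicate block, 8 members were higher and 3 lower in del DBD against MN1-TEL, since Ifit2 (adjusted p = 0.0523) and Ifi47 (0.0563) were lost, and no other call of a member changed. Slide as a block was not run, because the files used here name no slide. Genes detected on no array of a group have only bounds, and 11 members were too dim to test with the filter.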
